A study of Mus musculus with 8 samples.

Results

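The genes described are 44 components of the DNA replication machinery, taken by name from a fixed list, and they are 44 of the 21938 protein-coding genes of the mouse annotation on which the same measures were made. They were chosen by name and not by a measured value, although earlier results of these data were known when the list was made. They comprise the MCM helicase subunits with Mcm10, the origin recognition complex, the licensing factors Cdc6, Cdt1 and Gmnn, the helicase partners Cdc45 and Gins1 to Gins4, the sliding clamp and its loader, replication protein A, the polymerases with primase, Fen1 and Lig1, the nucleotide synthesis enzymes Rrm1, Rrm2 and Tyms, and Top2a. For each gene, every same-strand CAGE tag cluster was taken whose dominant transcription start site (TSS, the base with the most capped 5′ ends) lay between 500 bp upstream of the gene start and the gene end.

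CAGE-seq reads the capped 5′ ends of RNA and so maps where RNA polymerase II began transcription, here in nuclear RNA of E14 mouse embryonic stem cells (mESCs) and of 2 derived clones, A1 and C7, with a Pwwp2a/b double knockout (DKO). PWWP2A and PWWP2B are chromatin proteins that join a histone deacetylase complex, and the study asked how start sites change without them. There were 3 wild-type E14, 2 A1 and 3 C7 libraries, all from cells kept undifferentiated in serum with LIF on gelatine. Each clone is a single clone of the same parent line, so that the deletion and any other property of a clone cannot be told apart.

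Replication starts from origins that are licensed in G1, when the origin recognition complex with Cdc6 and Cdt1 loads the MCM helicase as a double ring, and geminin (Gmnn) blocks reloading once S phase has begun. In S phase Cdc45 and the GINS complex turn the loaded ring into the active helicase, after which primase, the polymerases and the PCNA clamp copy the DNA. Many of these genes are known targets of E2F factors, which activate them as cells enter S phase, and mESCs spend a large part of their short cycle in S phase.

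The deposited values were positions only, in 1 merged track per line, so the lines are set side by side without replicate error and with no p-value. The E14, A1 and C7 tracks held 32857, 33005 and 32870 clusters, and neither their depth nor any expression level was in the file. Most clusters had their outer ends in common, with 31968 of 33845 distinct clusters sharing both ends across the 3 lines, and 105 of 110 at the replication genes. Presence in 3 lines is therefore not 3 independent observations, while the dominant TSS and the interquantile region (the part of a cluster between quantiles 0.1 and 0.9 of its signal) were set for each line. Of the deleted genes, Pwwp2a had 1 promoter and 1 intronic cluster in all 3 lines and Pwwp2b had none in any, which does not check the knockout, since a start site can remain when a gene is disrupted. The stem cell genes Pou5f1, Nanog, Sox2, Klf4, Esrrb, Zfp42, Dppa5a and Tdgf1 all had promoter clusters in the 3 lines, and Postn, Gata6, Foxa2, Pax6, T and Hand1 had none. Col1a1, Col1a2, Thy1, Sox17 and Neurod1 had at least 1 as well.

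All 44 replication genes had a main promoter cluster in each of the 3 lines, against 50.4% of all coding genes in E14. The main promoter cluster was defined as the cluster nearest the start of the principal transcript, with its dominant TSS within 500 bp of an annotated start. In E14, 13 of the 44 genes had 2 or more promoter clusters (29.5%, Wilson interval 18.2% to 44.2%). The share for coding genes with a main cluster, 37.5%, lay inside that interval, so the replication genes were not set apart here. For 23 genes the only cluster in all 3 lines was a single promoter cluster, a count that was not made for coding genes. The remaining comparisons use the 11058 coding genes with a main cluster in E14, or the 10963 whose main clusters overlapped between E14 and both clones.

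The sequences below are the reference bases (RefSeq promoters, build GRCm38.p6) around the dominant TSS of 7 genes, read 5′ to 3′ on the strand of the gene, from 100 bases before the TSS to 10 after it. They are shown because the E2F letters lie within 50 bases of the start site in the first 5, with the nearest centre 31 bases away at Orc1 and 6 to 13 bases away at the other 4, and are missing from the window of the last 2. Capitals mark E2F letters and, apart from these, the base before the TSS together with the TSS itself.
Mcm7, chr5:138171842-138171952, minus strand: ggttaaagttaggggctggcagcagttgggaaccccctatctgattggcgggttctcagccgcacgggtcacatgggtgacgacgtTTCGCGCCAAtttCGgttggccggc
Orc1, chr4:108579361-108579471, plus strand: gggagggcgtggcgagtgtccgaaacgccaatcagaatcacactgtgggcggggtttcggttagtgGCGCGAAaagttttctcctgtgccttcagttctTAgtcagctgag
Gins3, chr8:95633428-95633538, plus strand: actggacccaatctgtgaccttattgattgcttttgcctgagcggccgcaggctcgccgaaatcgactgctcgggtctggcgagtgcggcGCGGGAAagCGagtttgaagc
Rfc3, chr5:151651182-151651292, minus strand: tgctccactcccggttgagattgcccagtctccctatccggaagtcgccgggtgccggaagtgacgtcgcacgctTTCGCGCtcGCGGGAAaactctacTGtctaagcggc
Rfc4, chr16:23127700-23127810, minus strand: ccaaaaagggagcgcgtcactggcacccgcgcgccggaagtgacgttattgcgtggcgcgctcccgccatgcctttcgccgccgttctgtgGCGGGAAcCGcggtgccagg
Mcm2, chr6:88898733-88898843, minus strand: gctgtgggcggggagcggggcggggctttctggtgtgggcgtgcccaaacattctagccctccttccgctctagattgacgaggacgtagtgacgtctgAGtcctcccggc
Top2a, chr11:99024180-99024290, minus strand: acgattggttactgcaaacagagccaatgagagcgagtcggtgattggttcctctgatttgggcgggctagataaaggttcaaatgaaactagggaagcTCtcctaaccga

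The E2F letters searched were TTCCCGC as the classic form together with the variants TTCGCGC, followed by TTGCCGC, and in addition TTGGCGC, each on either strand, in the 300 bases from 250 before to 50 after the annotated start. Of the 44 genes 36 had an entry in the promoter table, and Mcm4, Gmnn, Gins1, Gins2, Gins4, Rfc2, Prim2 and Pole had none. E2F letters were found in 22 of the 36 (61.1%, 95% Wilson interval 44.9% to 75.2%), compared with 19.1% of 8712 coding genes with a main cluster and 9.57% of all 32851 reference promoters. Such intervals take genes as independent and cover counting error only. At least 2 matches were present in 8 of the 36 promoters against 2.79% of the coding genes. Mcm6, the helicase subunit, had 5 matches and Pola1, the catalytic subunit of polymerase alpha, had 4, while Mcm3, Mcm5 and Mcm7 had 3 each. With a further T required before the motif the number was 13, and 13 had a match on the sense strand. Neither stricter count was made for coding genes or for all reference promoters. No match was found in the windows of Mcm2, Mcm10, Orc2, Orc5, Orc6, Cdc45, Pcna, Rfc5, Rpa1, Pola2, Pold2, Lig1, Tyms or Top2a.

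The E2F letters stood close to the start sites that were used. The dominant TSS lay inside the table's window for 25 genes, and 17 of these had a match. In 15 of the 17 the centre of the nearest match was within 50 bp of the dominant TSS, and in 12 it was upstream. The median distance was 9 bp, against 80 bp for the 1309 coding genes measured in the same way, of which 38.6% had a match within 50 bp. At Pole2, a subunit of the leading strand polymerase, the centre of the match was 2 bases before the TSS, and at Cdt1 and Rfc4 it was 6 bases before. Mcm7 and Gins3 had the centre 8 and 7 bases before the TSS, and in the sequences above the capitals of Mcm7 join 2 overlapping matches while Rfc3 has 2 separate ones. By contrast the nearest letters were 66 bases upstream at Orc3 and 261 bases upstream at Rrm2, the 2 genes outside 50 bp. At Pold1, Pola1, Mcm3, Prim1 and Rfc1 the nearest centre was downstream, by 4, 5, 8, 9 and 36 bases. A match to letters is a description of the sequence and not evidence of binding.

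The other motifs overlapped more with the background. CCAAT was found in 63.9% of the 36 promoters, in 40.5% of coding genes and in 37.4% of all reference promoters. ETS letters (CCGGAA) were found in 50.0%, 32.1% and 14.9% in the same order, and YY1 letters (ATGGCGG) in 13.9%, 9.64% and 4.05%. The GC box (GGGCGG) was near the coding share, at 72.2% against 69.9%, with 35.7% of all promoters. TATA letters (TATAAA) occurred in 1 promoter, that of Cdc45, or 2.78% against 6.27% of coding genes and 13.6% of all promoters. CHR letters (TTTGAA), an element of genes used late in the cycle, occurred in 11.1%, close to the share of coding genes, and in 17.9% of all promoters. All were searched on both strands, and CCAAT can share letters with an E2F match that is followed by T. The promoters had a median GC content of 58.8% against 61.8% for coding genes, and a ratio of observed to expected CpG of 0.879 against 0.795.

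**Figure D1:**
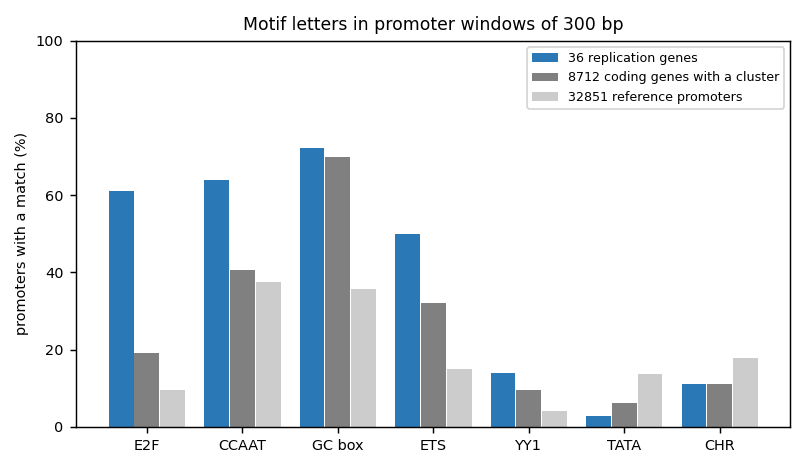
Percent of promoter windows of 300 bp holding each motif on either strand, for the 36 matched replication genes (blue), 8712 coding genes with a main cluster (dark grey) and 32851 reference promoters (light grey). The E2F bar of the replication genes, at 61.1%, stands 3 times or more above both backgrounds, whereas the GC box bars of the replication genes and the coding genes are nearly level.

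Start sites of the main promoters mostly had a pyrimidine before and a purine at the dominant TSS, the usual initiator of broad mammalian promoters. This held in E14 for 35 of the 40 main clusters whose bases could be read, or 87.5%, and for 89.7% in A1 and 84.6% in C7. Those bases were read from the promoter table and from exons. How the deposited positions were read was itself chosen by this pair over E14 clusters, so its high share is not a separate result. In the promoter table alone the pair was at 21 of 25 genes in E14, near the share of coding genes read in that way, 83.1% of 6721 main clusters. Among the 5 exceptions were Mcm2 with AG, Mcm3 with GA and Fen1 with GG in the promoter table, and Top2a, which had TC.

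The main promoters of the replication genes were broad. The median interquantile width was 36 bp in E14, with quartiles of 27.5 and 45.5 bp, 37 bp in A1 and 39.5 bp in C7, against 29 bp for coding genes in each line. The 95% order-statistic interval of the E14 median was 32 to 42 bp. In E14, 32 of the 44 were wider than the coding median, as were 47.8% of coding genes. Only 3 were sharp, with a width of at most 10 bp, compared with 21.6% of coding genes. For orientation, proteasome subunit genes had a median of 33 bp and cytosolic ribosomal protein genes 7 bp. The 35 further replication genes measured, a second list that holds regulators such as Cdc7, Dbf4 and Topbp1 and accessory subunits such as Pole3 and Chaf1a, had medians of 34, 33 and 35 bp in E14, A1 and C7, and 6 of the 35 were sharp.

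**Figure D2:**
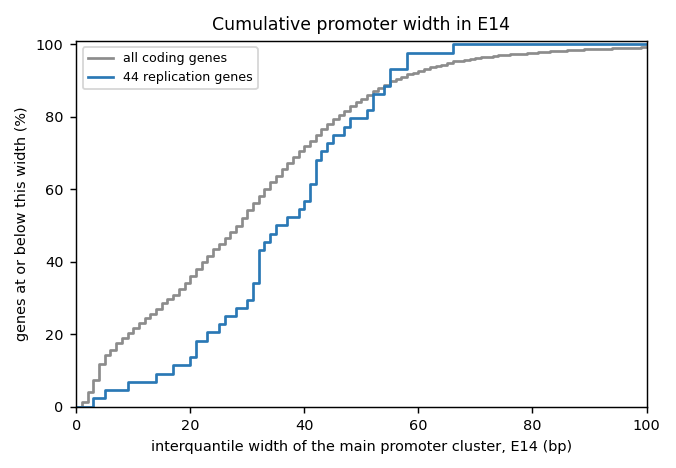
Percent of genes whose main promoter in E14 had at most the interquantile width on the horizontal axis (bp), for the 44 replication genes (blue) and all coding genes with a main cluster (grey). At 10 bp the curves stand at 6.82% and 21.6%, and at 30 bp at 29.5% and 54.2%, so the replication genes lack much of the narrow end.

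The MCM group spanned nearly the whole range. Mcm2, a ring subunit, had the narrowest main cluster of all 44 in E14 and in A1, at 3 bp in both, but measured 13 bp in C7, where Lig1 was narrowest at 5 bp. A second promoter cluster of Mcm2, 63 bases further into the gene, measured 32, 32 and 31 bp, so the low value belongs to the cluster nearest the annotated start and not to the whole promoter. Mcm6 had 58, 56 and 54 bp and stood among the 3 widest. Mcm7 widened from 31 bp in E14 to 37 bp in A1 and 44 bp in C7, and Mcm5 from 23 bp to 26 bp in both clones. Mcm3 and Mcm4 stayed between 42 and 45 bp in every line, and Mcm10, which assists helicase activation, measured 21 bp in all lines.

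In the origin recognition complex, Orc6 had 9 bp in E14, which is sharp, and 15 and 13 bp in A1 and C7, which are not, whereas Orc5 was broad at 55, 57 and 56 bp. Orc1 to Orc4 lay between 28 and 37 bp in E14. Orc6, at 9 bp, was the widest of the sharp promoters, and Top2a, at 14 bp, was the narrowest of the others. The licensing factors did not vary by more than 1 bp between lines. Cdc6 had 52, 52 and 51 bp, Cdt1 had 30 bp in each, and Gmnn 52 bp in each. The helicase partners included the widest promoter in E14 and C7, that of the GINS subunit Gins3, at 66, 65 and 65 bp, while in A1 Rrm1 was wider at 67 bp. Cdc45 had 51 bp in each line and Gins1 had 41, 47 and 47 bp.

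The clamp Pcna had 21 bp in all 3 lines, and the loader subunits Rfc1 to Rfc5 ranged from 25 to 45 bp in E14. Replication protein A coats single-stranded DNA, and its subunits Rpa1 and Rpa2 kept 40 and 32 bp in every line, while Rpa3 went from 54 bp in E14 to 39 bp in A1 and 40 bp in C7. That was the largest decrease among the 44 in both clones. The polymerase and primase genes ran from 20 bp (Prim2) to 44 bp (Pola2) in E14. Lig1, which seals Okazaki fragments, had 5 bp in each line at the cluster nearest its principal start, and 2 of its other 4 promoter clusters measured 59 and 58 bp in E14. The large subunit of ribonucleotide reductase, Rrm1, was wide at 58, 67 and 61 bp, and the small subunit Rrm2 measured 17 bp throughout.

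**Figure D3:**
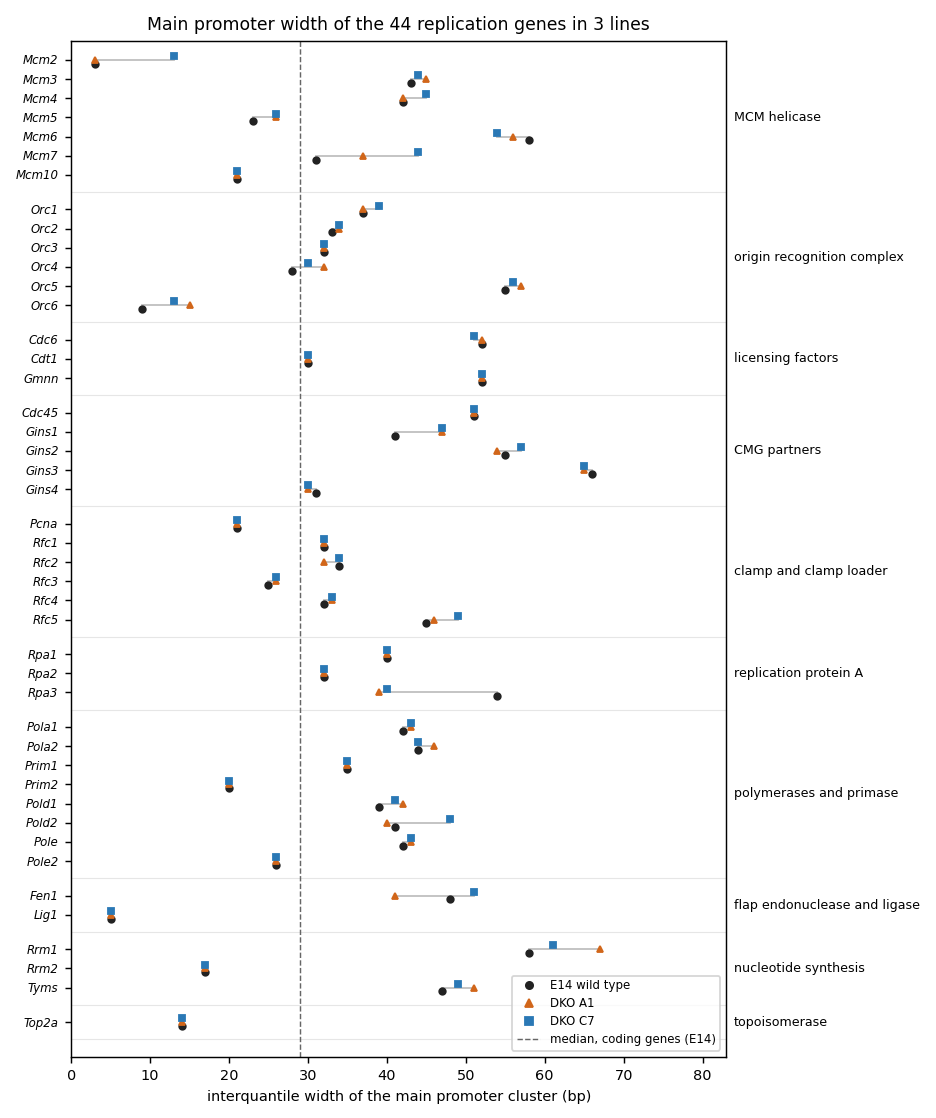
Interquantile width (bp) of the main promoter cluster of each of the 44 replication genes in E14 (circles), DKO A1 (triangles) and DKO C7 (squares), grouped by role, with 1 merged track per line and no error bars. The dashed line is the E14 median of coding genes, 29 bp, and the long grey bars belong to the genes that moved most, such as Rpa3, Mcm7, Mcm2 and Fen1.

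The position of the main start site was largely the same in the 3 lines. The dominant TSS was on the same base in E14 and both clones at 40 of the 44 genes, or 90.9%, against 73.7% of coding genes. In A1 it had moved at 3 genes (6.82%, Wilson interval 2.35% to 18.2%) against 18.5% of coding genes, and in C7 likewise at 3 against 16.6%. Gmnn moved 20 bases upstream in both clones, from position 24761910 of chromosome 13 to 24761930 on the minus strand. This was the only replication gene with the same new base in both clones, or 2.27% against 6.35% of coding genes. Rpa1 moved 34 bases downstream in A1 and 39 in C7. Mcm3 moved 18 bases downstream in A1 alone, and Gins3 the same distance in C7 alone. Taking the widest promoter cluster of each gene in place of the nearest, 5 genes had moved in A1 and 6 in C7. Among the 35 further replication genes 7 had moved in A1, 8 in C7 and 5 (14.3%) to the same base in both clones. Few moves were not particular to the 44 genes. Of 35 proteasome subunit genes 0 had moved in A1 and 1 in C7, and of cytosolic ribosomal protein genes 8.43% in each clone.

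Widths changed more often than positions, by small amounts. In A1 17 genes were wider than in E14 and 8 narrower, where 32.3% and 14.6% of coding genes were, and 19 had the same width. In C7 22 were wider and 5 narrower, against 30.3% and 14.7%, and 17 were the same. Both clones were wider at 16 genes (36.4%, Wilson interval 23.8% to 51.1%) against 20.2% of coding genes, and narrower at 4 against 5.77%. Few of these changes were large. At a minimum of 5 bp, 2 genes were wider in both clones (4.55% against 5.64% of coding genes), namely Mcm7 and Gins1, and 1 was narrower, Rpa3 (2.27% against 1.99%). The excess of small increases was thus not present at the larger size. The median difference from E14 was 0 bp in A1 and 0.5 bp in C7, and 0 bp for coding genes in both. The lines were merged from unequal numbers of libraries, and whether depth had a part in the widths was not tested.

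A second cluster pointing the other way lay just upstream of many of these promoters. A divergent partner was counted when the dominant TSS of an opposite-strand cluster lay within 500 bp upstream of that of the main cluster. It was present at 20 of the 44 genes (45.5%, Wilson interval 31.7% to 59.9%), in E14 and in each clone, against 21.8% of coding genes in E14. The second list of replication genes stood near the background, at 8 of 35 (22.9%). The median distance to the nearest partner was 172 bp, and 168 bp for coding genes.

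All 6 subunits of the origin recognition complex had a partner. Orc1 faced Prpf38a, a splicing factor gene, at 159 bp in all lines. Orc3 faced Rars2, the mitochondrial arginyl-tRNA synthetase, at 61 bp in E14 and 48 bp in both clones, the closest pair. Orc4 faced Mbd5 at 293 bp, and Orc6 faced Vps35, a retromer subunit, at 129 bp. Orc2 and Orc5 faced the noncoding genes Gm15834 at 221 bp and 6030443J06Rik at 96 bp, with the same distances in each line.

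In the MCM group Mcm4 faced Prkdc, the catalytic subunit of DNA-dependent protein kinase, at 275 bp, and Mcm7 faced Ap4m1 at 153 bp. The partner of Mcm5 was at 229 bp in E14 and A1 and 213 bp in C7, with no annotated start within 500 bp. Cdt1, Gmnn and Rrm2 also had a partner with no annotated start on its strand, at 231, 119 and 142 bp in E14. Partners at other coding genes were Smyd4 for Rpa1, Umad1 for Rpa3, Pxmp2 for Pole and Tmem258 for Fen1, at 166, 247, 180 and 289 bp. Noncoding partners were Gm10614 for Gins2 at 425 bp, AV099323 for Pcna at 178 bp, 6330408M09Rik for Rfc4 at 103 bp and Gm15728 for Rfc5 at 122 bp. In all, 10 of the nearest partners started at a coding gene, 6 at a noncoding gene and 4 at no annotated start. The same split was not made for the partners of all coding genes. At Rpa1 and Rpa3 the distance was larger in the clones than in E14, by up to 39 and by 50 bp. At Rpa1 the partner's dominant TSS kept its base and that of Rpa1 moved, whereas at Rpa3 the partner's moved and that of Rpa3 did not.

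**Figure D4:**
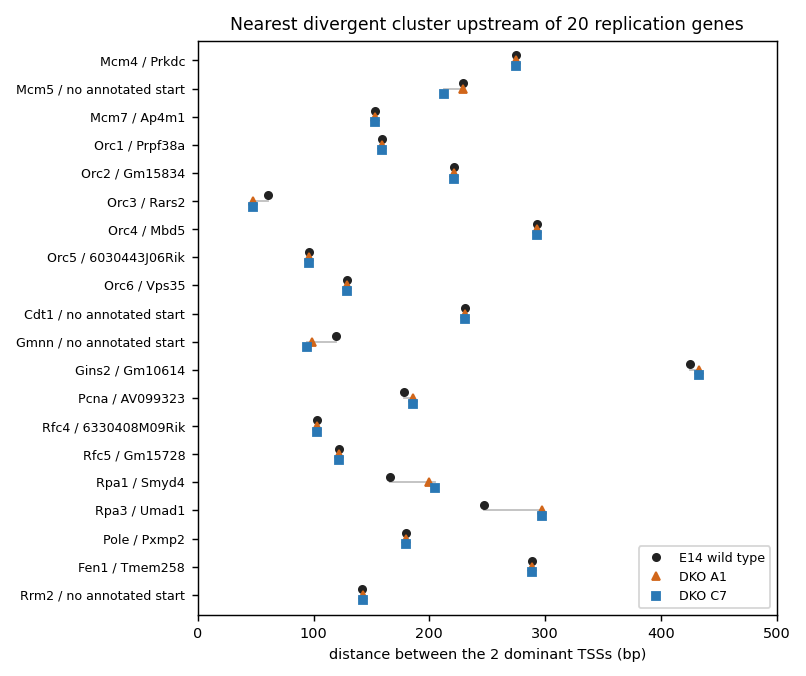
Distance (bp) between the dominant TSS of the main promoter of each of 20 replication genes and that of its nearest divergent partner, in E14 (circles), DKO A1 (triangles) and DKO C7 (squares), with the gene at the partner's start after the slash. Distances run from 48 to 433 bp and most coincide in the 3 lines, the exceptions being largest at Rpa1 and Rpa3.

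Inside the genes, start site clusters were found at a minority of members, and nearly all of them were present in all 3 lines. The dominant TSS of several nevertheless differed between lines. In Mcm3 exon 13 it was at 20806770 in E14 and at 20806779 in both clones. In Mcm5 exon 16 it was at 75126264 in E14 and at 75126240 in both clones. At others, such as those of Mcm2 and Pcna, it kept its base. How often this occurs over coding genes was not measured. Exonic clusters, over 500 bp from every annotated start of the gene and inside an exon, numbered 22 in E14 and 23 in each clone. They lay in 10 genes (22.7%, Wilson interval 12.84% to 36.99%), where 13.3% of coding genes had one, a share inside that interval. The share was 22.9% for proteasome subunit genes and 44.6% for cytosolic ribosomal protein genes, so it was not particular to the replication genes. Per length the figure was 17.3 clusters per 100 kb of principal exons, against 10.5 for coding genes. This figure was not calculated without Top2a, which held the most clusters. Top2a held 8 of the 22, Lig1 3, and Mcm3, Pola1 and Tyms 2 each, with Mcm2, Mcm5, Orc4, Pcna and Rfc1 at 1 each. Coding sequence held 18 of the 22 and exons of noncoding transcripts 4, with none in a UTR. A count of 0 of 22 allows a share of up to 13.6% if clusters are taken as independent. That does not hold strictly here, as 8 of the 22 lay in 1 gene, Top2a. For exonic clusters of coding genes the 3′ UTR share was 25.7% and the coding share 68.6%. In the second list 8 of 35 genes had exonic clusters, 18 in E14, 17 in A1 and 16 in C7, of which Top1 held 8 in E14. The highest count was that of Top2a in the first list and of Top1 in the second, while Top2b, also in the second list, had 0 in every line.

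Top2a encodes the topoisomerase that untangles sister chromatids and lies on the minus strand of chromosome 11. In E14, 1 of its exonic clusters lay 6477 bp from the gene start and the other 7 lay together between 21198 and 27364 bp from it. They had interquantile widths from 2 to 25 bp in E14. Exon 28 of 36 held a pair, as did exon 24. At the cluster from 99000054 to 99000070 the A1 dominant TSS was 15 bases from its place in E14 and C7 and fell outside the exon. A1 is therefore counted with 7 exonic and 1 intronic cluster although no cluster was missing. The A1 dominant TSS also differed at 98997878, against 98997902 in E14 and C7, and at 99002976, against 99002991, and stayed exonic. Clusters in exons 27 and 31, at 23408 and 28324 bp from the gene start, count as promoter clusters, being near an annotated start.

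The bases around 8 exonic start sites are given because they differ from the promoter start sites above. Each was read from GENCODE M21 exons and promoters on GRCm38, 5′ to 3′ on the gene's strand. The stretch has 15 bases before the TSS and 14 after it, and capitals mark the 3 bases before the TSS and the TSS. The TSS marked is that of E14, except in exon 4 of Rfc1, where E14 had no cluster and that of A1 is marked. Of 24 exonic clusters in any line, 16 had 2 guanines directly before the TSS. Sites not shown include Top2a with ACC, ATA or ATG and Lig1 with ACG before the TSS.
Mcm2 exon 2, chr6:88897344-88897373, minus strand: agatgagtctgaGGGGctgctgggcacaga
Mcm3 exon 13, chr1:20806756-20806785, minus strand: cagaggaagccgTGGAgctggttcagtatg
Mcm5 exon 16, chr8:75126249-75126278, plus strand: tcactacccaggAGGAccaggagatgctga
Rfc1 exon 11, chr5:65287955-65287984, minus strand: ttgaacgttatgGGGGgaaagtaacaggaa
Rfc1 exon 4, chr5:65311133-65311162, minus strand: ctcagagtcagaGGAGacagtacaggtaaa
Lig1 exon 6, chr7:13288706-13288735, plus strand: aggagcagaatgAGGAcaaaaccaaaacag
Tyms exon 7, chr5:30061023-30061052, minus strand: tttcagattgaaGGGTataatccacatcca
Top2a exon 28, chr11:98999220-98999249, minus strand: gccttctcctcgGGGCaaaagagtcatccc

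None of the 22 exonic dominant TSSs in E14 had the pyrimidine and purine pair, while 79.6% of 54 readable promoter clusters of the same genes did. A count of 0 of 22 allows a share of up to 13.6%, again with clusters taken as independent. In coding genes 7.44% of exonic and 75.5% of promoter clusters had the pair. A pair of guanines stood directly before 15 of the 22 exonic TSSs in E14 (68.2%), with 66.4% in exonic clusters of all coding genes, so the replication genes matched the background in this respect. At promoters the shares were 9.26% and 10.5%. In A1 and C7, 14 of 23 exonic TSSs had the guanine pair. The cause of the difference between exonic and promoter start sites was not tested.

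Intronic clusters numbered 21 in E14, 23 in A1 and 20 in C7, in 6 genes in E14 (13.6% against 12.8% of coding genes). Pola1 held 12 of them, being the longest gene of the set at 327389 bp. Orc4 held 4, Prim2 2, and Orc1, Orc6 and Prim1 1 each. They were narrow, with a median interquantile width of 2 bp in E14 against 8.5 bp for the exonic clusters, and when clusters under 3 bp were left out 8, 8 and 7 remained in E14, A1 and C7.

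**Figure D5:**
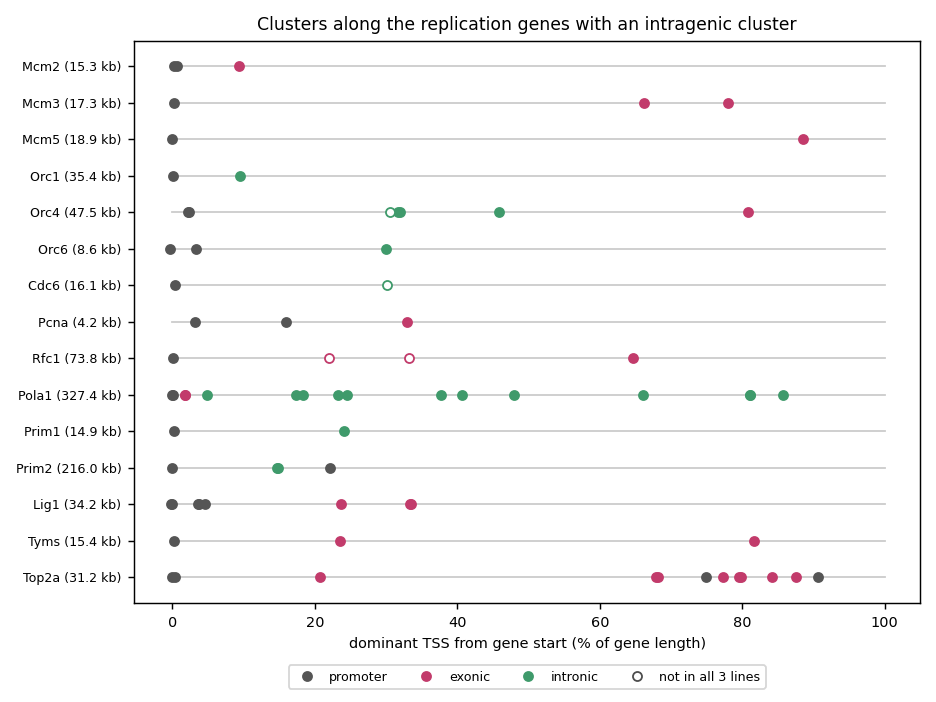
Dominant TSSs along the 15 replication genes with an exonic or intronic cluster in any line, as percent of gene length from the gene start, with promoter clusters in grey, exonic in magenta and intronic in green. Open circles mark the 4 exonic or intronic clusters not present in all 3 lines, and the filled magenta points of Top2a crowd into the last part of the gene.

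Few clusters differed in presence between the lines. Of 64 promoter, 24 exonic and 22 intronic clusters in any line, 63, 22 and 20 were present in all 3. The only cluster found in both clones and not in E14 was in coding sequence of Rfc1, the large subunit of the clamp loader, in exon 4 of 25, from 65311136 to 65311147 on the minus strand of chromosome 5. Its dominant TSS was at 65311147 in A1 and at 65311136 in C7, and its interquantile width was 12 bp in both. This made 1 of the 44 genes (2.27%) with a gained cluster against 0.651% of coding genes. None of the 44 had a cluster of E14 missing from both clones, which allows up to 6.82%, where 0.398% of coding genes had one. A1 alone had a 1 bp cluster in exon 2 of Rfc1, at 65319409, and another in an intron of Cdc6, at 98912661 on chromosome 11. C7 alone had a 1 bp promoter cluster of Gmnn, at 24761452, and lacked an intronic cluster of Orc4 from 48935766 to 48935767 on chromosome 2 that E14 and A1 had.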

How the data were processed

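Nuclear RNA CAGE-seq of 8 libraries was analysed as 3 merged tracks. The authors mapped reads to mm10 with STAR 2.4.2a (unique alignments only), pooled the libraries of each line after mapping, applied a power-law normalization and built tag clusters with CAGEr. The deposited values are positions: cluster ends, strand, dominant TSS and interquantile blocks. Every score is 0, and the minimum signal of a cluster is not given in the sources used here. Depth per sample is unknown from the file, so precision rests on positions alone.

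Clusters were assigned with GENCODE M21 on GRCm38 using Python 3.11.15, NumPy 2.4.6, SciPy 1.17.1 and Matplotlib 3.10.9. The 44 genes and all lists were chosen with earlier results of these data known. Column 7 was read as a BED start, since 82.1% of 8954 E14 positions then had a pyrimidine before a purine, against 1.66% and 2.96% 1 base to either side. Genes named in full were those with the 3 widest and 3 narrowest promoters, moved start sites, clusters in some lines only, the 5 with most exonic clusters, and the divergent pairs. Chtf8 was left out of the second list, as 2 coding genes share that name. The functions were tested on simulated clusters. No p-value was calculated.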

Additional observations from a re-analysis of the deposited data

Results flagged for a closer look

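At 3 genes the interquantile width of the main promoter changed in opposite directions in the 2 clones, a difference that was not tested. Fen1, the flap endonuclease, had 48 bp in E14, 41 bp in A1 and 51 bp in C7, so that C7 exceeded A1 by 10 bp. Pold2, a subunit of polymerase delta, had 41 bp in E14, 40 bp in A1 and 48 bp in C7, a difference of 8 bp between the clones. Gins2 had 55 bp in E14, 54 bp in A1 and 57 bp in C7, a difference of 3 bp. These are 6.82% of the 44 genes, and 5.92% of 10963 coding genes had widths that went in opposite directions. The dominant TSS was on the same base in all lines at each of the 3.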

How the results depend on the processing

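Of 124 values recomputed under 20 alternatives, 26 moved and 98 did not, a count being taken as unmoved within 1.5 times of the reported one, and a median or share within its 95% interval. Within that limit the E14 counts ran from 16 to 29 for exonic clusters, 20 to 28 for intronic clusters and 16 to 21 for divergent partners. By whole cluster width the medians were 86 bp in each line, since the lines have the outer ends of the main clusters in common. Without clusters under 3 bp, the intronic counts were 8, 8 and 7 in E14, A1 and C7, and 2 clusters were gained in both clones, the second being at Mcm4, where the E14 cluster measured 1 bp. With the widest promoter cluster as the main one, 5 genes had a moved TSS in A1 and 6 in C7. At a width change of at least 5 bp, 4 genes were wider in A1, 4 in C7 and 2 in both, and 2, 1 and 1 were narrower. Against clone A1 alone 3 clusters were gained, and against clone C7 alone 2 were gained and 1 was lost. E2F letters were found in 13 promoters with 8 bases and in 13 on the sense strand, with no background share measured for either. The pyrimidine and purine pair was at 56.6%, 57.9% and 57.7% of all clusters of the genes in E14, A1 and C7. At main promoter clusters the shares were 87.5%, 89.7% and 84.6%. Read 1 base downstream they were 7.79%, 5.19% and 10.1% of all clusters. Low shares there were fixed in advance, since the position was chosen by this pair. No paired analysis was possible because the replicates of each line were merged in the deposited tracks, and for the same reason no replicate could be left out.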

Other observations

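Antisense clusters inside the replication genes, over 500 bp from every annotated start of the gene, numbered 8 in each of the 3 lines. They lay in 5 genes in E14 (11.4%, against 8.33% of coding genes with a main cluster), and none was within 500 bp of an annotated start on its own strand. Lig1 held 3, from 11476 to 12161 bp from the gene start, beyond its exonic clusters in exon 6. Pola1 held 2, and Rfc1, Pole2 and Top2a had 1 each.

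The dominant TSS in E14 lay downstream of the principal transcript start at 37 of the 44 genes and upstream at 6. The median offset was 32 bp downstream, against 18 bp for coding genes. The dominant TSS was over 100 bp away from that start at 10 genes, the farthest being Mcm7 at 570 bp. The counts by direction and over 100 bp were not made for coding genes.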
